A study of Rattus norvegicus with 20 samples.

Results

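The genes described here encode the receptors for acetylcholine, noradrenaline, dopamine, serotonin and histamine in the rat supraoptic nucleus (SON). They were taken by gene symbol, as the muscarinic (Chrm) and nicotinic (Chrn) acetylcholine receptor, alpha-1, alpha-2 and beta adrenergic (Adra1, Adra2, Adrb), dopamine (Drd), serotonin (Htr) and histamine (Hrh) receptor genes with a mean normalised read count of at least 10 in a table. Of 52 genes with such a symbol, 41 were members, among 15502 genes with that mean in any table and 32402 genes listed. The members were 5 of 5 muscarinic, 10 of 15 nicotinic, 3 of 3 alpha-1, 3 of 3 alpha-2, 2 of 3 beta, 4 of 5 dopamine, 11 of 14 serotonin and 3 of 4 histamine receptor genes. Chrna1, the alpha subunit of the muscle receptor, passed in the aged dehydration table only, with a mean of 10.3, while Htr7, with means up to 8.18, and Chrna3, with means up to 7.37, lay just outside. The other genes below the mean were Adrb3, Chrna6, Chrna9, Chrna10, Chrnd, Drd4, Hrh4, Htr2b and Htr3b, and Chrnd was listed at 0 in every library.

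Poly(A) RNA from bilateral SON punches of male Wistar Han rats was sequenced, with 1 library per rat and 4 groups of 5 rats. The adult rats were 3 months old and the aged rats 18 months old, and at each age the rats were either euhydrated (EH), with free access to water, or dehydrated (DH) by removal of drinking water. The labels give 2 days of dehydration, whereas the study's methods describe a longer period. Libraries held 24268398 to 30348118 reads on genes, and the values were normalised read counts, made separately in a table for each of 3 comparisons: ageing (EH rats, aged less adult), adult DH (adult rats, DH less EH) and aged DH (aged rats, DH less EH). The ageing comparison shares its adult EH rats with adult DH and its aged EH rats with aged DH. Avp and Oxt, which define the magnocellular neurons of the SON, were abundant in every group, with group means of at least 79666 in the adult DH table and higher in the other 2, but a punch also holds astrocytes, microglia, oligodendrocytes, vessels and neighbouring neurons. In such bulk samples, fewer cells of a type and less RNA per cell cannot be told apart.

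Acetylcholine acts on nicotinic receptors, which are cation channels built from 5 subunits, and on muscarinic receptors, which couple to G proteins. Chrm1, Chrm3 and Chrm5 raise phospholipase C activity through Gq, whereas Chrm2 and Chrm4 lower adenylyl cyclase activity through Gi. Noradrenaline, dopamine, serotonin and histamine also act on receptors coupled to Gq, Gi or Gs, except for the serotonin-gated channel Htr3a. In the SON, noradrenergic fibres of the brainstem, histaminergic fibres of the tuberomammillary nucleus and local cholinergic cells excite or modulate the neurons that release vasopressin and oxytocin. Autoreceptors such as Hrh3, Adra2a and Drd2 also curb the release of their own transmitter from nerve endings, whose RNA lies mostly in distant cell bodies and not in a SON punch.

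The nicotinic genes Chrna5, Chrna3 and Chrnb4 lie next to each other in the RefSeq annotation of the rat assembly GRCr8, between Psma4 and Ube2q2, with Chrna5 facing the other way from Chrna3 and Chrnb4. The 250 bases before each start are shown because Chrna5 and Chrnb4 were the members that rose in adult DH, and those of Hrh3 and Chrm1 because they fell with DH. RefSeq held a promoter for 31 of the 41 members. Capitals mark matches, on either strand, to the GC box GGGCGG and the E-box CACGTG, and GC boxes may overlap each other. The windows are chr8:64265629-64265878 (plus strand) for Chrna5, chr8:64311252-64311501 (minus) for Chrna3, chr8:64333110-64333359 (minus) for Chrnb4, chr3:187574260-187574509 (minus) for Hrh3 and chr1:214996109-214996358 (plus) for Chrm1.
Chrna5: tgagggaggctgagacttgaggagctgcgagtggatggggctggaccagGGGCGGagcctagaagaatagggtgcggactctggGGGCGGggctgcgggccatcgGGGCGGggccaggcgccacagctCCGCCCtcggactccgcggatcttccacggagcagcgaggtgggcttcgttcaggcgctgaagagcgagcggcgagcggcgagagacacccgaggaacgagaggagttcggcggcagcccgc
Chrna3: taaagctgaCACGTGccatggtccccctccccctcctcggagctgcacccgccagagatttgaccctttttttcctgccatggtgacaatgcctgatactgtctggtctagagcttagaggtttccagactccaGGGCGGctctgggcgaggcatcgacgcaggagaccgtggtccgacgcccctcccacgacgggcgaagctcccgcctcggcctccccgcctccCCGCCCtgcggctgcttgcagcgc
Chrnb4: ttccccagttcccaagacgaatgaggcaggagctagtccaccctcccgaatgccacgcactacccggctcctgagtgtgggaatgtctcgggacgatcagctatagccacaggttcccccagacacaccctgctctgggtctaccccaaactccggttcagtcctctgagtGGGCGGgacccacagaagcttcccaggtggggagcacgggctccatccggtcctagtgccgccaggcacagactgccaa
Hrh3: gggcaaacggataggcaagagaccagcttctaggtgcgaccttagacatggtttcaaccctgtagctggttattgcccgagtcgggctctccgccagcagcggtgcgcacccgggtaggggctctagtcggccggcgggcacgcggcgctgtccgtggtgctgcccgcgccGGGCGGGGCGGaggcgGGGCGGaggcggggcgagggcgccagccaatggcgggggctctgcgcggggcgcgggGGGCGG
Chrm1: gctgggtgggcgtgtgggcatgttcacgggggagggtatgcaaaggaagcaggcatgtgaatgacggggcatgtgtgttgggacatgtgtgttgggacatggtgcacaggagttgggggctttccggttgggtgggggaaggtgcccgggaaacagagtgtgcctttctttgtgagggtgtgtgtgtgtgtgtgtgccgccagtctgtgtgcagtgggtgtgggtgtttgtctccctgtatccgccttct
Chrna5, Chrna3, Chrnb4 and Hrh3 held GC boxes in these windows and Chrm1 held none. A GC box was present in 18 of the 31 member promoters (58.1%) and in 30.5% of the 33469 promoters of the table. The E-box was present in Chrna7 alone among the members, and in Chrna3, against 5.59% of all promoters. The CRE TGACGTCA (1.59% of all promoters), the AP-1 motif TGACTCA (4.05%) and the Egr motif GCGTGGGCG (0.478%), each searched on both strands, were in none of the 31 windows. These are matches of letters in a window and not measured sites.

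Few receptor genes passed the threshold of an adjusted p of 0.05 (limma, Benjamini-Hochberg adjusted across the whole table), and their share was near that of all genes. In ageing, 3 of 40 members passed (7.5%), against 5.99% of all genes tested. Of these, 1 was higher in aged EH rats (2.69% of all genes) and 2 were lower (3.3% of all genes). In adult DH, 5 of 40 passed (12.5%), against 12.7% of all genes. Of these, 2 rose (7.67% of all genes) and 3 fell (4.99%). In aged DH, 2 of 41 passed (4.88%), against 7.29% of all genes, and both fell (3.25% of all genes fell and 4.05% rose).

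The median LFC (log2 fold change, on the scale of log2 of the normalised read count plus 1) was -0.02 in ageing, -0.10 in adult DH and -0.04 in aged DH, where the medians of all genes were 0.00, -0.01 and 0.00. The median absolute LFC was 0.15, 0.18 and 0.19 in the same order, against 0.08, 0.09 and 0.09 over all genes. The median SE of a member's LFC was 0.15 in each comparison. The members were not matched with genes of like count, so whether they changed more than such genes was not tested. In adult DH, 13 members lay above 0 and 27 below, while 47.8% of all genes lay above 0. In aged DH the split was 15 above and 26 below, against 49.0% of all genes above 0. In ageing it was 20 and 20. The median 95% interval of a member's LFC, not adjusted for the number of genes, reached 0.32 to either side in ageing and 0.31 in both DH comparisons. This is not a limit of detection, since some smaller LFCs passed and some larger ones did not. With 5 rats per group, changes below and above this width may have been missed.

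**Figure D1:**
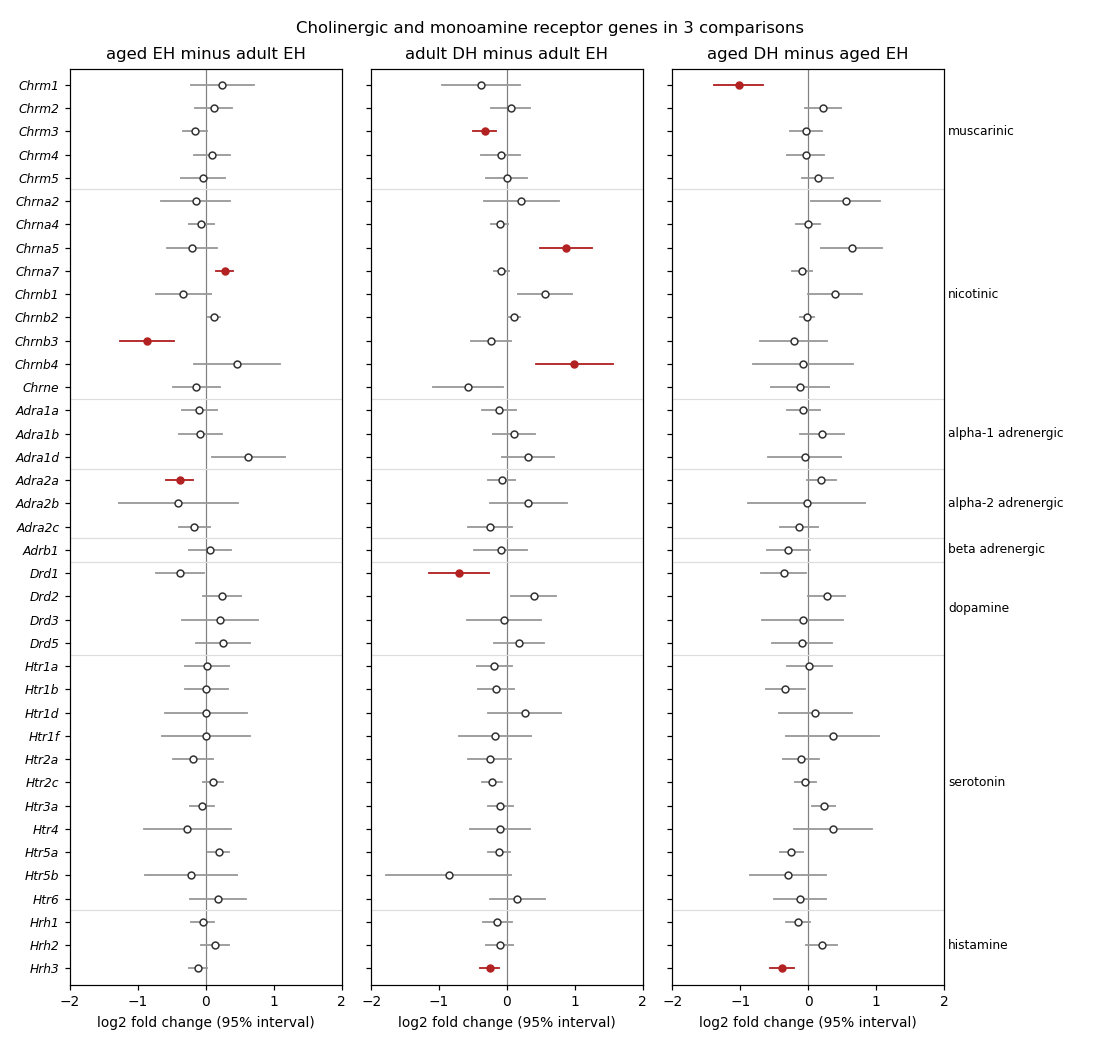
LFC of members tested in all 3 comparisons, in ageing (left), adult DH (middle) and aged DH (right), with receptor families separated by lines and labelled on the right; points are LFCs, bars are 95% intervals, and filled red points passed the adjusted threshold of 0.05. Most intervals include 0, and the red points are 3 in ageing, 5 in adult DH and 2 in aged DH.

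Chrm1 (ENSRNOG00000018385), the muscarinic M1 receptor that is abundant in cortical and hippocampal pyramidal neurons, had the lowest LFC of any member in aged DH. Its normalised read counts were 831, 497, 639, 662 and 471 in the aged EH rats and 304, 350.1, 277, 207 and 384 in the aged DH rats, so every DH rat lay below every EH rat. It was the only member whose groups did not overlap in aged DH, where 7.05% of all genes did not. The means were 620.0 ± 145 and 305 ± 68.2 (SD, n = 5 each), with an LFC of -1.02 (SE 0.17, adjusted p = 0.00244). In adult rats the counts were 765, 315, 389, 672 and 462 in EH and 437, 207, 362, 583 and 411 in DH. These groups overlapped, and the LFC was -0.38 (95% interval -0.95 to 0.20, adjusted p = 0.40). The change in aged rats less that in adult rats was -0.65 (95% interval -1.37 to 0.08, adjusted p = 0.561), which does not separate the ages. In ageing the LFC was 0.24 (SE 0.22, adjusted p = 0.603).

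The level of Chrm1 moved with markers of telencephalic excitatory neurons, a population of the cortex and amygdala next to the SON. Of the 9 markers, all of them detected, 5 fell in aged DH, namely Slc17a7 (the vesicular glutamate transporter of those neurons), the transcription factors Neurod6, Neurod2 and Bhlhe22, and Nrgn. Their summed level was 4537 to 7531 in aged DH rats and 8095 to 14145 in aged EH rats, and these ranges did not overlap. Of all 9 markers, 8 had an LFC below 0 in aged DH, where 3.25% of all genes passed as lower. In adult DH 6 of the 9 had an LFC below 0 and 1 passed as lower (Nrgn), as did 4.99% of all genes. The sums in adult rats were 5183 to 9961 in DH and 7211 to 13445 in EH. In the difference between the ages none of the 9 passed, with a median of -0.14. In ageing none of the 9 passed, with sums of 8147 to 14167 in aged and 7504 to 14016 in adult EH rats. Nrgn, a calmodulin-binding protein of forebrain neurons, made up 61.5% to 80.4% of the sum in the rats of ageing and adult DH.

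In the comparisons where the groups overlapped, and with both groups pooled, rats with a higher level of the list tended to have more Chrm1. Over the 10 rats of adult DH, Pearson's r between the log2 level of Chrm1 and the log2 summed level of the list was 0.94 (permutation test, p = 0.00014, adjusted p = 0.0115) and Spearman's rho was 0.89 (permutation test, p = 0.00125, adjusted p = 0.0512). Without the 2 rats farthest from the median of the list, r was 0.90. Over the 10 rats of ageing, which share the 5 adult EH rats, r was 0.91 (permutation test, p = 0.00064, adjusted p = 0.0262), rho was 0.90 (permutation test, p = 0.00095, adjusted p = 0.0512), and r without the 2 farthest rats was 0.86. With Nrgn left out of the sum, r was 0.83 in ageing (permutation test, p = 0.00241, adjusted p = 0.0395; 0.76 without the 2 farthest rats) and 0.76 in adult DH (permutation test, p = 0.0082, adjusted p = 0.0961; 0.45 without those 2 rats). Spearman's rho without Nrgn was 0.87 in ageing (permutation test, p = 0.00245, adjusted p = 0.067) and 0.70 in adult DH (permutation test, p = 0.0308, adjusted p = 0.281). Each r and its p pool the 2 groups of a comparison, so a shift of both levels between the groups enters them. No r within a group was computed. The adjustment covered 82 such relations, of which r was positive in 24 in ageing and 25 in adult DH. The other relations with an adjusted Pearson p under 0.05 were those of Htr5b (r = 0.88, adjusted p = 0.0374) and Htr5a (r = 0.86, adjusted p = 0.0395) in adult DH, by the same permutation test, and their Spearman values had adjusted p of 0.266 and 0.326. No pooled r is given for aged DH, where the list separates the groups.

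With the mean log2 level of the list as a covariate, the LFC of Chrm1 in aged DH was -0.27 (adjusted p = 0.97). In that fit 12 genes of all those tested passed in aged DH, against 1119 without the covariate. The list and the groups were nearly the same split of the rats. This fit therefore cannot show whether the fall of Chrm1 goes with the list.

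**Figure D2:**
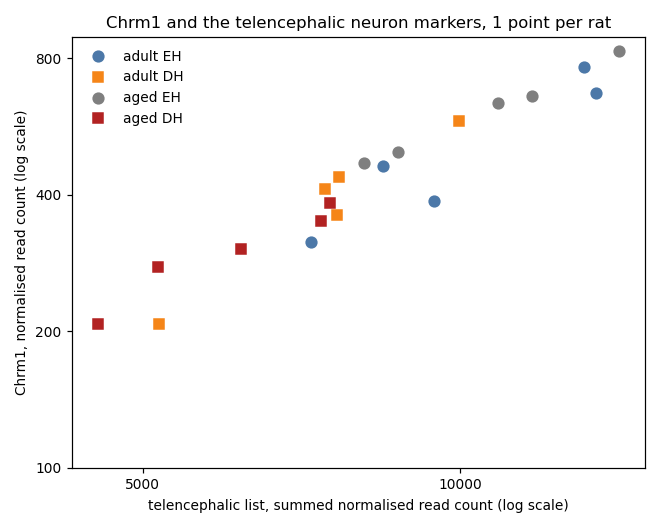
Normalised read count of Chrm1 (vertical, log scale) against the summed normalised read count of the 9 telencephalic markers (horizontal, log scale), 1 point per rat, with values from the DH table of each age. The aged DH rats lie lowest on both axes among aged rats, and over the 10 adult rats, EH and DH pooled, r was 0.94.

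Chrm3 (ENSRNOG00000049410), a Gq-coupled receptor of smooth muscle, glands and brain, was the muscarinic gene that fell in adult DH. Its counts were 593, 543, 513, 561 and 528 in adult EH and 440.2, 465, 368, 515 and 399.6 in adult DH. Only the highest DH rat reached the EH range. The means were 547 ± 31.0 and 438 ± 57.2 (SD, n = 5 each), with an LFC of -0.33 (SE 0.08, adjusted p = 0.0176). Aged rats had 513 ± 66.9 in EH and 504 ± 84.0 in DH, with an LFC of -0.03 (95% interval -0.27 to 0.20). The difference between the ages was 0.30 (95% interval -0.0042 to 0.60, adjusted p = 0.511). Chrm2, Chrm4 and Chrm5 passed in none of the comparisons. RefSeq places the lncRNA LOC134482864 across Chrm3, so reads of the overlap may belong to either gene.

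Among the nicotinic subunits, Chrna5 and Chrnb4 rose in adult DH. Chrna5 (ENSRNOG00000013610), an accessory alpha subunit that alters the calcium permeability and desensitisation of the channels it joins, had counts of 51.0, 39.0, 39.0, 57.7 and 50.2 in adult EH and 61.9, 75.6, 103, 88.7 and 112 in adult DH. All DH rats lay above all EH rats, and it was the only member without overlap in adult DH, where 10.9% of all genes did not overlap. The means were 47.4 ± 8.19 and 88.2 ± 20.2 (SD, n = 5 each), with an LFC of 0.87 (SE 0.18, adjusted p = 0.00559). The aged counts were 49.1, 47.0, 42.8, 30.9 and 43.1 in EH and 81.5, 55.2, 103, 58.98 and 46.4 in DH. Only the lowest DH rat fell within the EH range there, with an LFC of 0.64 (95% interval 0.19 to 1.09), but the adjusted p of 0.0838 missed the threshold. The change in aged less that in adult rats was -0.23 (95% interval -0.82 to 0.36, adjusted p = 0.844). In ageing the LFC was -0.21 (adjusted p = 0.567). RefSeq places the pseudogene Zc3h15-ps2 within Chrna5.

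Chrnb4 (ENSRNOG00000014427), a beta subunit that forms ganglionic-type receptors with Chrna3 and Chrna5, was a low gene. Its counts were 12.5, 10.5, 11.1, 18.2 and 8.68 in adult EH and 33.9, 31.1, 22.6, 14.6 and 25.6 in adult DH. The lowest DH rat lay within the EH range. The means were 12.2 ± 3.64 and 25.5 ± 7.56 (SD, n = 5 each), with an LFC of 0.99 (SE 0.27, adjusted p = 0.0258). At such low counts the LFC depends on the pseudocount, and it was 0.66 with a pseudocount of 10 and 1.07 with DESeq2 on the reads. This call was lost when any of 6 of the 10 rats was left out (adult EH replicates 2, 4 and 6 and adult DH replicates 1, 2 and 5), with adjusted p from 0.00957 to 0.0645 over all 10. Aged rats averaged 18.3 ± 7.11 in EH and 18.1 ± 10.7 in DH, and the highest rat, at 36.9, was a DH rat. The LFC there was -0.08 (95% interval -0.81 to 0.65). The difference between the ages was -1.07 (95% interval -1.99 to -0.14), with an adjusted p of 0.442. Chrna3, the neighbour and usual partner, had 1 to 16 reads per library and was not tested. RefSeq places the lncRNA LOC120094166 across Chrna3 and Chrnb4, and the strand setting of the counting is not given in the sources used here.

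With age, among EH rats, the nicotinic subunit gene Chrna7 was higher and Chrnb3 was lower. Chrna7 (ENSRNOG00000010853), which forms homomeric channels with high calcium permeability, had counts of 1089, 959, 1031, 939.6 and 1070.3 in adult EH and 1215, 1254, 1361, 1192 and 1139 in aged EH. The groups did not overlap, as for 6.38% of all genes, and Chrna7 was the only such member in ageing. The means were 1018 ± 66.2 and 1232 ± 83.4 (SD, n = 5 each), with an LFC of 0.28 (SE 0.06, adjusted p = 0.0118). It had LFCs of -0.08 in adult DH and -0.09 in aged DH, with adjusted p of 0.354 and 0.528. Tmem35a, which encodes the chaperone NACHO that assembles alpha-7 receptors, was also higher in aged EH (2981 ± 282 against 2458 ± 157, LFC 0.28, adjusted p = 0.0182) and rose in adult DH (2940 ± 119 against 2358 ± 149, LFC 0.32, adjusted p = 0.000404).

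Chrnb3 (ENSRNOG00000012448), an accessory beta subunit known from catecholaminergic neurons, was lower in aged rats. Its counts were 289.8, 298, 254, 181 and 319 in adult EH and 202, 164, 98.1, 128 and 147 in aged EH. The lowest adult rat lay below the highest aged rat and above the other aged rats. The means were 268 ± 54.4 and 148 ± 39.0 (SD, n = 5 each), with an LFC of -0.87 (SE 0.18, adjusted p = 0.0144). DH did not move it past the threshold at either age, with LFCs of -0.23 (adjusted p = 0.305) and -0.21 (adjusted p = 0.67). Its annotated neighbour Chrna6 lay below the mean of 10, with 1 to 7 reads per library.

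The most abundant nicotinic subunit gene by read count, Chrnb2, forms the common brain receptor with Chrna4. It had counts of 1383, 1447, 1507, 1367 and 1355 in adult EH and 1502, 1458, 1589, 1532 and 1488 in adult DH, with an LFC of 0.10 (SE 0.04, adjusted p = 0.112). The groups overlapped. In aged rats the counts were 1498, 1541, 1675, 1616 and 1648 in EH and 1676, 1504, 1697, 1539 and 1493 in DH, with an LFC of -0.01 (95% interval -0.12 to 0.09). In ageing its LFC was 0.12 (adjusted p = 0.135). As for the muscle-type subunits, Chrnb1 had LFCs of 0.56 in adult DH (adjusted p = 0.0666) and 0.40 in aged DH (adjusted p = 0.224). In aged rats Chrna1 averaged 6.54 ± 1.39 with EH and 14.1 ± 5.22 with DH (SD, n = 5 each). It reached the mean of 10 through the DH rats alone, so no test of it is given. It was fitted with the others, and the counts and medians of the 41 members in aged DH include it, above 0 and not past the threshold. Chrna2, Chrna4 and Chrne passed in no comparison. Over the whole family, the LFCs in adult DH ran from -0.57 (Chrne) to 0.99 (Chrnb4).

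Of the adrenergic receptors, Adra2a passed, in ageing only. Adra2a (ENSRNOG00000047545), a Gi-coupled receptor that dampens noradrenaline release and neuronal firing, had counts of 412, 451, 341, 449 and 391 in adult EH and 287, 296, 308, 297 and 377 in aged EH. Of the aged rats, 4 lay below every adult rat, and the other, at 377, lay within the adult range. The means were 409 ± 45.5 and 313 ± 36.5 (SD, n = 5 each), with an LFC of -0.38 (SE 0.09, adjusted p = 0.0278). This call was lost without any of aged EH replicates 1, 2, 4 and 5 and adult EH replicates 1, 2 and 5, with adjusted p from 0.00884 to 0.0714 over the 10 rats left out in turn, and also with the telencephalic covariate (LFC -0.34, adjusted p = 0.0787). In DH its LFCs were -0.08 in adult rats and 0.19 in aged rats (adjusted p of 0.643 and 0.274).

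The alpha-1 receptors couple noradrenaline to Gq and are known to excite magnocellular neurons. Adra1a had counts of 159.7, 139, 160.4, 145 and 209 in adult EH and 136, 175, 141, 157 and 135 in adult DH (LFC -0.12, 95% interval -0.37 to 0.13). In aged rats they were 172, 151, 135, 147 and 181 in EH and 159, 141, 124, 168 and 158 in DH (LFC -0.07, 95% interval -0.31 to 0.17). The groups overlapped at both ages. Adra1d had the highest LFC of any member in ageing, 0.63 (46.7 ± 7.91 in adult and 77.2 ± 34.3 in aged EH), with an adjusted p of 0.168.

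The dopamine receptors Drd1 and Drd2, which couple to Gs and Gi, had LFCs of opposite sign with DH at both ages, and Drd1 passed the threshold in adult rats. Drd1 (ENSRNOG00000023688) had counts of 352, 267, 209.6, 363 and 358 in adult EH and 175, 147, 162, 326 and 163 in adult DH. Of the DH rats, 4 lay below every EH rat, and replicate 4, at 326, lay within the EH range. The means were 309.8 ± 68.6 and 195 ± 73.9 (SD, n = 5 each), with an LFC of -0.70 (SE 0.21, adjusted p = 0.0394). The call was lost without any of adult EH replicates 1, 2, 5 and 6 and adult DH replicates 1, 2, 3 and 5, with adjusted p from 0.00216 to 0.093 over the 10 rats, and with edgeR (adjusted p = 0.0509) and DESeq2 (adjusted p = 0.0637) on the reads. With the telencephalic covariate, described with Chrm1, its LFC was -0.66 (adjusted p = 0.0499). Aged rats had counts of 251, 231, 199, 211 and 333 in EH and 161, 184, 242, 143 and 223 in DH, with an LFC of -0.36 (adjusted p = 0.196). Over the 10 adult rats of the adult DH table, the r of Drd1 with the telencephalic list was 0.77 (permutation test, p = 0.00691, adjusted p = 0.0944). It pools EH and DH rats, so a shift of both levels with DH enters it, and no r within a group was computed.

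Drd2 had counts of 239, 333, 296, 219 and 285 in adult EH and 396, 461, 244, 389.5 and 332 in adult DH. The LFC was 0.39 (95% interval 0.06 to 0.73, adjusted p = 0.116). In aged rats the counts were 269, 307, 348, 331 and 431 in EH and 498, 373, 388, 327 and 455 in DH, with an LFC of 0.28 (95% interval 0.01 to 0.55, adjusted p = 0.221). The groups overlapped at both ages. With both groups pooled, the r of Drd2 with the telencephalic list was -0.73 in adult DH (permutation test, p = 0.0163, adjusted p = 0.122). In ageing it was -0.74 (permutation test, p = 0.0125, adjusted p = 0.112). The summed level of 8 striatal neuron markers was 3732 to 4737 in adult DH and 3316 to 3684 in adult EH rats. In aged rats it was 3941 to 4398 in DH and 3789 to 4310 in EH. Its relation to Drd1 and Drd2 was not tested.

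None of the 11 serotonin receptor genes passed in any comparison by limma. Htr2c, a Gq-coupled receptor of hypothalamic neurons and choroid plexus, had the highest read count of all members. Its counts were 3185, 3615, 3483, 3368 and 3669.9 in adult EH and 3503, 3197, 2629, 2835 and 2814 in adult DH, where 3 DH rats lay below every EH rat. The LFC was -0.22 (SE 0.07, 95% interval -0.36 to -0.07), with an adjusted p of 0.0532. It did pass with a mean of at least 50 (adjusted p = 0.0497), with upper quartile scaling, with the telencephalic covariate (adjusted p = 0.0317), with DESeq2, and without adult EH replicate 1, adult DH replicate 1 or adult DH replicate 2. Aged rats had 3447, 4085, 3553, 3805 and 4584 in EH and 3821, 3720.4, 3953, 3375 and 4026 in DH, with an LFC of -0.04 (95% interval -0.19 to 0.11). Of 6 choroid plexus markers, Otx2 was at 0 in all libraries and Slc4a5 fell in adult DH, with summed levels of 211 to 445 in DH and 247 to 733 in EH.

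Htr5a, a Gi-coupled receptor, had 326 ± 25.6 in aged EH and 274 ± 22.0 in aged DH (LFC -0.25, adjusted p = 0.0746). It passed there with DESeq2 and, like Htr1b, without aged EH replicate 2, and its r with the telencephalic list over adult rats is given above. The channel Htr3a had 358 ± 32.4 in aged EH and 419 ± 38.0 in aged DH (LFC 0.23, adjusted p = 0.109) and 359 ± 36.5 against 336 ± 37.5 in adult EH and DH (LFC -0.10, adjusted p = 0.515). Its difference between the ages, 0.33 (95% interval 0.07 to 0.58), had the lowest unadjusted p of any member (0.0137, adjusted p = 0.381). Htr5b had the lowest LFC of the family, -0.86 in adult DH, but its 95% interval ran from -1.78 to 0.05. In adult DH, 9 of the 11 serotonin receptors lay below 0, and in aged DH 6 of 11.

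Hrh3 (ENSRNOG00000061153), the Gi-coupled histamine receptor that curbs the release of histamine and other transmitters, was the receptor gene that fell with DH at both ages. Its counts were 705, 667, 690.0, 702 and 695 in adult EH and 568, 576, 689.6, 533 and 543 in adult DH. Of the adult DH rats, 4 lay below every EH rat, and replicate 3 lay within the EH range. The means were 692 ± 15.3 and 582 ± 62.6 (SD, n = 5 each), with an LFC of -0.25 (SE 0.06, adjusted p = 0.0186). Among aged rats they were 745, 613, 585, 701 and 677 in EH and 479.6, 535, 479, 458 and 588 in DH. The highest DH rat exceeded the lowest EH rat by a few counts, and the other 4 lay below every EH rat. The means were 664 ± 65.1 and 508 ± 53.2 (SD, n = 5 each), with an LFC of -0.39 (SE 0.08, adjusted p = 0.00999). The size did not differ detectably between the ages, with a difference of -0.13 (95% interval -0.36 to 0.09, adjusted p = 0.737). In ageing the LFC was -0.12 (adjusted p = 0.314).

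Both calls of Hrh3 were kept when any rat was left out, and in adult DH under each of 10 other settings. In aged DH the call was lost with the telencephalic list as a covariate (LFC -0.23, adjusted p = 0.968). In that fit 12 genes of all those tested passed, against 1119 without the covariate. The list nearly splits the rats by group there, so this fit cannot show whether the fall of Hrh3 goes with the list. The excitatory histamine receptors Hrh1 (Gq) and Hrh2 (Gs) passed in no comparison. Hrh2 had LFCs of -0.11 in adult DH and 0.20 in aged DH, and its difference between the ages was 0.31 (95% interval 0.02 to 0.60, adjusted p = 0.48).

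**Figure D3:**
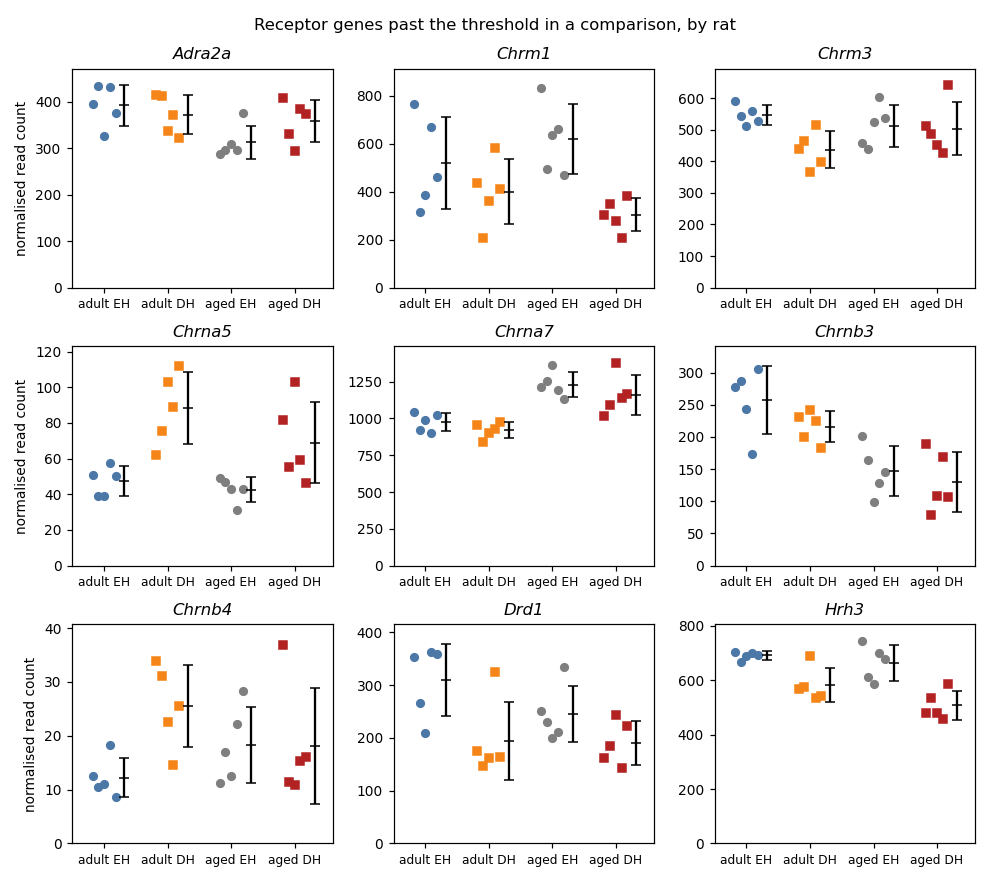
Normalised read counts of the 9 receptor genes that passed the threshold in a comparison, 1 point per rat, with black bars for the mean ± SD of 5 rats; vertical axes start at 0. The adult groups come from the adult DH table and the aged groups from the aged DH table, which were normalised separately. Chrna5 shows no overlap between adult EH and adult DH, and Chrm1 none between aged EH and aged DH.

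No receptor gene passed the test of the difference in the DH response between the ages. Limma passed 0 of 40 members, and 0 of all 15326 genes tested (0%). On the reads edgeR passed 0 genes and DESeq2 55 of 15326 (0.359%), and neither passed a member. At an unadjusted p of 0.05, 3 of 40 members were below (Chrnb4, Hrh2 and Htr3a, 7.5%), against 9.93% of all genes. The median 95% interval of a member's difference reached 0.44 to either side. The adult and aged DH comparisons share no rats. Across the 40 genes in both, the LFCs had a Pearson's r of 0.52 and a Spearman's rho of 0.56, given as a description since genes are not independent replicates. In all, 27 of 40 had the same sign, 7 above 0 and 20 below.

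**Figure D4:**
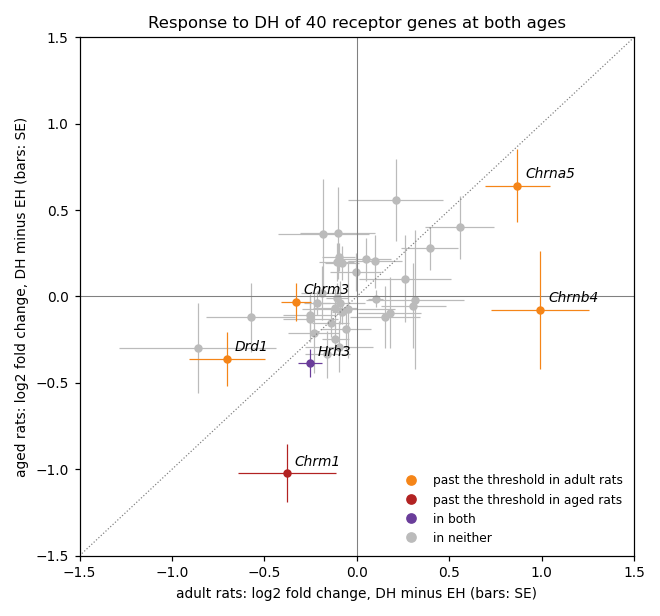
LFC with DH in adult rats (horizontal) against aged rats (vertical) for the 40 members tested in both, with SE bars and a dotted line of equal change; colours show in which age a gene passed the adjusted threshold of 0.05. Hrh3 passed in both, Chrna5, Chrnb4, Chrm3 and Drd1 in adult rats and Chrm1 in aged rats, and Chrnb4 lies farthest to the right of the dotted line.

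Of the genes that supply the transmitters, some of those for catecholamines passed the threshold. Th, the rate-limiting enzyme of catecholamine synthesis, which magnocellular neurons also express, rose in adult DH from 859 ± 222 to 2692 ± 988 (SD, n = 5 each, LFC 1.62, adjusted p = 0.000174) and in aged DH from 2169 ± 893 to 4878 ± 734 (LFC 1.24, adjusted p = 0.00204). It was also higher in aged than in adult EH rats (LFC 1.23, adjusted p = 0.0060). Of the 13 genes of this list, 9 were tested. In adult DH 3 rose and 1 fell, where 12.7% of all genes passed. The others that rose were the vesicular transporter Slc18a2 (LFC 0.52) and the cofactor enzyme Gch1 (LFC 0.77), while Qdpr, which recycles that cofactor, fell (LFC -0.24). In aged DH, Th and Qdpr rose (2 of 9, against 7.29% of all genes that passed), and in ageing Th, Qdpr and Slc18a1 were higher (3 of 9, against 5.99%). Most of the 9 did not pass in any one comparison. The noradrenaline enzyme Dbh and transporter Slc6a2 lay under a mean of 10.

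None of the 5 tested genes of acetylcholine supply passed in any comparison. Chat, which makes acetylcholine, had LFCs of 0.26, 0.06 and 0.00 in ageing, adult DH and aged DH, with adjusted p of 0.628, 0.905 and 0.998. Of the 5 genes of serotonin and histamine supply, none of the 2 or 3 tested passed, and the histamine enzyme Hdc lay under a mean of 10. Of the 7 nicotinic accessory genes, Tmem35a rose and Lypd1 fell in adult DH (LFC of Lypd1 -0.16, adjusted p = 0.0354). Lypd1 encodes a Ly6 protein that inhibits nicotinic receptors. None of the 7 passed in aged DH. Over all genes, 12.7% passed in adult DH and 7.29% in aged DH.

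Downstream of the receptors, some genes of RGS proteins, which speed the inactivation of Gq and Gi, were lower. Rgs4 was lower in each comparison, which share groups, from 4588 ± 325 to 3704 ± 140 in adult DH (LFC -0.31, adjusted p = 0.000656), from 4246 ± 95.3 to 3632 ± 327 in aged DH (LFC -0.23, adjusted p = 0.0178) and from 4783 ± 335 in adult to 4255 ± 106 in aged EH rats (LFC -0.17, adjusted p = 0.0404). Of the 17 regulators, 3 fell in adult DH (Rgs2, Rgs4 and Rgs14), 3 in aged DH (Arrb2, Rgs4 and Rgs14), 2 were lower in ageing (Rgs4 and Rgs16), and none was higher in any of them by limma. Over all genes 4.99%, 3.25% and 3.3% passed as lower in these comparisons. Rgs14 had LFCs of -0.47 in adult DH and -0.75 in aged DH. Of 21 G protein and effector genes, Gnas (Gs alpha, LFC 0.15 for the more abundant of its 2 entries, while the other did not pass) and the cyclase Adcy8 (LFC 0.17) rose in adult DH, Plcb1 (phospholipase C beta-1, LFC -0.23) fell in aged DH, and Gnal (Golf alpha, LFC 0.27) was higher in ageing. Of the 22 entries of these genes tested, 2 passed in adult DH, where 12.7% of all genes passed. In aged DH 1 passed, against 7.29% of all genes, and in ageing 1 passed, against 5.99%. Telencephalic markers, described with Chrm1, also fell in aged DH. Their part in the falls of Rgs4, Rgs14, Arrb2 and Plcb1 there was not tested.

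Other markers also moved with the groups. In ageing, 4 of 7 tested genes of the meninges and fibroblast list were lower, with sums of 6415 to 10081 in aged and 13265 to 15067 in adult EH rats, and 4 of 6 oligodendrocyte genes were lower, with sums of 235433 to 285818 and 264040 to 386912. In the same comparison 2 of 6 microglial genes were higher, with sums of 6776 to 7714 in aged and 5780 to 6535 in adult EH rats. Of 7 magnocellular genes, 4 were higher in ageing and 4 rose in adult DH and 2 in aged DH. Their sums were 326680 to 433519 in adult DH and 223343 to 312271 in adult EH. The sums overlapped in ageing, at 288378 to 404036 in aged and 232438 to 325424 in adult EH rats. They also overlapped in aged rats, at 348084 to 556312 in DH and 286548 to 403926 in EH. Over all genes, 2.69% passed as higher and 3.3% as lower in ageing. With DH, 7.67% rose in adult and 4.05% in aged rats. The part of these marker lists in the changes of Chrna7, Chrnb3, Adra2a, Chrna5 and Hrh3 was not tested.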

How the data were processed

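Poly(A) RNA-seq of SON punches was analysed from 3 deposited tables with 30 columns of single rats. According to the labels and methods, reads were aligned with STAR to Rn6, counted per gene with featureCounts and scaled by DESeq2 size factors within each table. The signal values, as deposited by the authors, are these normalised read counts. Columns of the authors' own fold changes, Wald statistics and p-values were not used. Dividing by the step of each column gave whole reads for 100% of values (within 0.1 read), so the depth is known, and the 10 libraries present in a pair of tables had the same reads in both.

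Values were taken as log2 of the normalised read count plus 1, and genes with a mean of at least 10 were fitted with limma 3.58.1 (trend, R 4.3.3), two-sided, with Benjamini-Hochberg adjustment (threshold 0.05), in each table and, for the difference between ages, over all 20 rats. The adult EH rats serve in both ageing and adult DH, and the aged EH rats in both ageing and aged DH. Each 95% interval of an LFC is the LFC ± the t quantile times its SE. edgeR 4.0.16 and DESeq2 1.42.0 were run on the recovered reads as alternatives. The fits were also run on simulated data, with changes set only in genes with a mean of at least 50. That run does not cover members with lower counts. Replicate numbers of the labels did not pair rats (correlations of deviations from -0.08 to 0.16). Promoters and neighbouring genes are from RefSeq GRCr8, matched by symbol, with no coordinates taken across to Rn6. Levels were not compared between genes, since no transcript lengths were used.

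Every member could be named. Counts in all rats are given for members that passed a threshold or did not overlap between groups, and for the member with the highest mean in each family. A member and a marker gene that this rule would name are not reported here, though counts over all members include that member. Of the pathway lists, genes that passed are named, and a few others (Chat, Dbh, Slc6a2 and Hdc) were chosen after their values were seen, as were the muscle-type subunits, Adra1d, Htr5a, Htr5b, Htr3a and Hrh2. The members and lists were chosen with earlier results of these data known. The alternatives were pseudocounts of 0.5 and 10, other filters on the mean, no trend, upper quartile scaling, a replicate block, the telencephalic list as a covariate and leaving out each rat.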

Additional observations from a re-analysis of the deposited data

Results flagged for a closer look

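For the fully described members, 84 groups of 5 rats were examined. Of these, 5 held a rat whose gap to the nearest other rat exceeded Dixon's critical value. Chance at 1 in 20 gives 4.2, but each EH group was examined in both comparisons that it serves. The same libraries count more than once, so the 84 groups are not independent. Adra2a was high in aged EH replicate 6, at 377.1 in the ageing table and 374.7 in the aged DH table, which are the same library; without this rat the LFC in ageing was -0.45. Chrnb4 was high in aged DH replicate 1, at 36.9. Drd1 was high in adult DH replicate 4, at 325.5, and without this rat its LFC in adult DH was -0.90. Hrh3 was high in adult DH replicate 3, at 689.6, where the other adult DH rats had 533 to 576.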

How the results depend on the processing

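The number of members that passed in ageing was 3 and stayed at 3 in all settings over all 10 rats except without the trend, where 1 passed (Chrna7); with the telencephalic covariate Drd2 passed in place of Adra2a. It ranged from 2 to 3 when each rat was left out. In adult DH the number was 5, with 3 under the replicate block (Chrna5, Drd2 and Hrh3), 4 to 6 in the other settings over all 10 rats, and 3 to 6 when each rat was left out; the lowest values came without adult EH replicates 2 or 6 or adult DH replicate 5. In aged DH the number was 2, with 0 with the telencephalic list as a covariate, 3 under the replicate block, 4 with DESeq2 (Chrm1, Hrh3, Chrna5 and Htr5a), and 2 to 4 when each rat was left out, 4 without aged EH replicate 2. With that covariate only 12 of all genes tested passed in aged DH, since the list nearly splits the rats by group. The 3 without aged DH replicate 1 include Chrna1, which reached the mean of 10 through its DH rats alone. For the difference between ages the number of members was 0 in every setting run. Since the replicate numbers did not pair rats, the replicate block is only a check, and under it Chrm3 (adjusted p = 0.103), Chrnb4 (0.115) and Drd1 (0.225) in adult DH missed the threshold. Chrna7 in ageing, and Chrna5 and Hrh3 in adult DH, passed in all settings run, and Chrnb3 in ageing in all but the fit without the trend (adjusted p = 0.0538). No LFC of a member that passed changed sign. Chrnb4 could not be tested with a mean of at least 50. The fits of edgeR and DESeq2 on the reads for the difference between ages and for single members were added after seeing the data. Chrnb4, Chrna1 and Adra2b, with 3 to 38 reads per library, are limited by depth.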
